A study of Homo sapiens with 18 samples.

Results

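Transcript levels of 2 established human endometrial cancer lines, Hec-1A and RL95-2, were compared in the 12 arrays of cells given PDGF-AA, out of 18 arrays in the study. The 4 groups of 3 arrays were Hec-1A with PDGF-AA + 3G3, Hec-1A with PDGF-AA, RL95-2 with PDGF-AA + 3G3 and RL95-2 with PDGF-AA. They were chosen by the cell line and treatment in the labels and not by any measured value, and no array of cells under control IgG was used. PDGF-AA, which all 12 received, is a dimeric growth factor that binds the platelet-derived growth factor receptor alpha, and 3G3 is an antibody to that receptor. The PDGF-AA + 3G3 groups thus received an antibody. The labels of the PDGF-AA groups name none and do not say whether control IgG was added. The labels used here give no dose and no time. Hec-1A was derived from an adenocarcinoma and RL95-2 from a carcinoma with glandular and squamous parts, so each stands for 1 tumour. Nothing says that replicates came from separate cultures, so p-values measure only the spread between these samples, which may be technical. The source is labelled as cells, while the RNA protocol speaks of tissues. No slide is named in the files, so any handling tied to a line cannot be told apart from the line itself.

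The glands of the endometrium derive from the Mullerian duct and carry lineage factors such as PAX8 and SOX17, and the adenosquamous form of endometrial cancer adds cells with the keratins and desmosomes of stratified epithelium. Cell lines keep parts of such programmes together with the transport, matrix, lipid and immune genes that each tumour used. The Notch pathway is one route by which epithelial cells set their neighbours' fate. Ligands of the Delta-like and Jagged families on one cell bind NOTCH receptors on the next, which are then cut by proteases, fringe enzymes modify the receptors, and the freed receptor domain joins the DNA-binding protein RBPJ to switch on the HES and HEY repressors.

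Levels are normalized log2 signals of the deposited table, in which every array had a median of 6.64, and are given as the lowest, the median and the highest of the 6 arrays of a line. A difference is Hec-1A minus RL95-2 on the log2 scale ± its SE, adjusted for treatment in a linear model (limma), and a probe was called at a Benjamini-Hochberg adjusted p below 0.05 over all tested probes. Where all 6 arrays of a line lay at or below the array median, the difference is given as at least N-fold, with that line raised to the array median. Of 47231 probes 28916 (61.2%) exceeded the array median on 3 or more of the 12 arrays and were tested. Hec-1A differed from RL95-2 in 12615 of them (43.6%), with 6512 higher (22.5%) and 6103 lower (21.1%). An unadjusted p below 0.05 was seen for 14080 probes. Most differences were small, with a median size of 0.40 among the called probes. A difference of at least 2-fold was called for 1728 probes (5.98%), 822 higher and 906 lower in Hec-1A, and at least 8-fold for 168, 62 higher and 106 lower. The 6 Hec-1A arrays did not overlap the 6 RL95-2 arrays for 8609 probes (29.8%). The median over all tested probes was 0.006. The split of calls was 51.6% higher with the deposited normalization and 41.4% higher without normalization between arrays.

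Taken by gene, on the brightest probe of each, 14408 genes were tested and 7707 were called (53.5%), 3902 higher (27.1%) and 3805 lower (26.4%), with a median of 0.005 and no overlap between the lines for 38%. The share called rose with brightness: 71% of the 7204 genes at or above the median level of tested genes were called, against 36% of the 7204 below it. The 64 gene lists used below held 1134 tested genes, of which 70.5% were called. With the same brightness cut, 81.9% of the 703 brighter list genes and 52% of the 431 dimmer ones were called, a description of lists chosen with results known. Of the 1134, 94 passed the filter through Hec-1A alone and 136 through RL95-2 alone, with fewer than 3 arrays of the other line above the median, and for such members the filter itself favours a difference. Counts and medians of lists are therefore given as descriptions, with no test. They stand beside 27.1% higher, 26.4% lower and 38% without overlap among all tested genes. Some lists had a share called near or below the 53.5% of all genes. Among them were p53 targets (57.1%), cytosolic ribosomal proteins (57.5%), integrins (50%), imprinted genes (50%) and mucins and secreted gland products (43.8%). Per array the 75th percentile of signal was 122.7 to 156.7 in Hec-1A and 141.5 to 170.2 in RL95-2. The median 95% half-width of a difference was 0.116, which the number of arrays limits. Background remained in the signal, so differences of dim probes are understated. Of the variance among the 12 arrays, 85.8% fell on a first principal component that separated the lines, and 6.97% on the next. Arrays of the same line correlated at 0.987 or above, and arrays of different lines at 0.927 or below. After treatment means were taken out, 1 component held 65.7% of the variance among the RL95-2 arrays, with replicate 1 under PDGF-AA and replicates 2 and 3 under PDGF-AA + 3G3 on one side, and the other 3 opposite. Among the Hec-1A arrays such a component held 54.8%, with replicate 1 under PDGF-AA and replicate 2 under PDGF-AA + 3G3 on one side and replicates 2 under PDGF-AA and 3 under PDGF-AA + 3G3 on the other. Without those 3 RL95-2 arrays 10994 probes were called, 50.8% of them higher, and without the first or the second of the Hec-1A pairs, chosen after seeing the data, 11743 (51.9%) and 12267 (52%). Where a result named below rests on such arrays its value without them is given.

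The line difference was nearly the same with and without 3G3. On the PDGF-AA + 3G3 arrays alone, 9335 of the 28916 probes were called (32.3%), 4859 higher (16.8%) and 4476 lower (15.5%). On the PDGF-AA arrays alone, 9667 were called (33.4%), 5022 higher (17.4%) and 4645 lower (16.1%). These arrays are separate, and 8014 probes were called in both, 85.8% of the first set and 82.9% of the second. The direction was the same in 8013 of them. The exception was GRXCR1, a dim probe that stood at 0.22 with PDGF-AA + 3G3 and at -0.21 with PDGF-AA and was not called over all 12 arrays. Of the 12615 calls over 12 arrays, 12614 had the same sign in both treatments. Those calls average the 2 treatments, so a shared sign is largely set by how the probes were picked. Across all tested probes the 2 sets of differences correlated at r = 0.981, a description over genes that share libraries. The test of the difference itself, the interaction of line and treatment in limma, called 0 of 28916 probes, with 758 at an unadjusted p below 0.05, where 5% of the probes is 1446. Its smallest adjusted p was 0.52, for TAGLN. Among the probes called at least 2-fold, the interaction had a median size of 0.08 and reached at most 0.65.

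**Figure D1:**
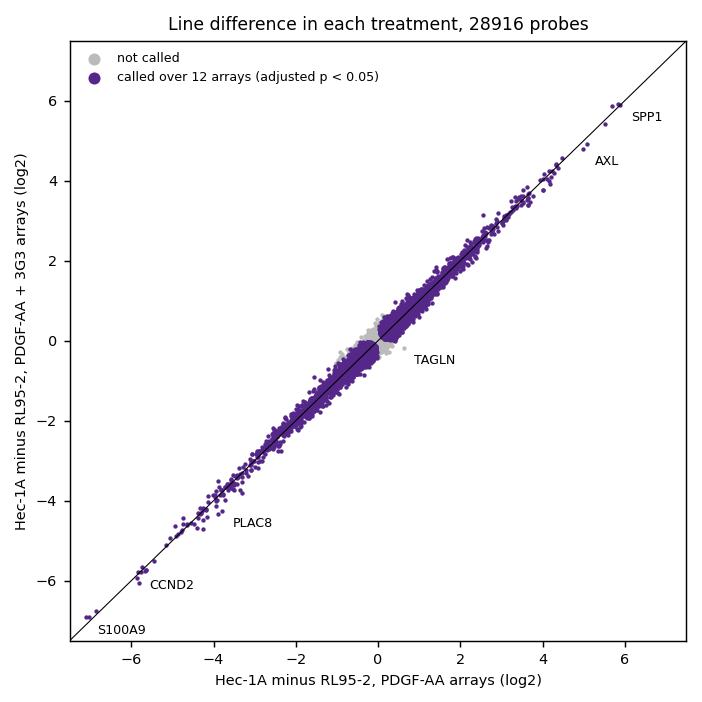
Each point is 1 of 28916 probes, with the Hec-1A minus RL95-2 difference (log2) in the PDGF-AA arrays on the horizontal axis and in the PDGF-AA + 3G3 arrays on the vertical axis. Points lie along the diagonal (r = 0.981), from S100A9 at the lower left to SPP1 at the upper right, and TAGLN, with the smallest interaction p, lies below it.

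TAGLN, an actin-binding protein of smooth muscle, read 7.66, 7.74 and 7.59 in Hec-1A with PDGF-AA + 3G3 and 7.87, 7.64 and 7.88 in Hec-1A with PDGF-AA. In RL95-2 it read 7.94, 7.67 and 7.96 with PDGF-AA + 3G3 and 7.18, 7.19 and 7.15 with PDGF-AA. The 3 RL95-2 arrays with PDGF-AA were thus the low ones, and the line difference was -0.19 with PDGF-AA + 3G3 and 0.62 with PDGF-AA (interaction -0.81 ± 0.12, limma adjusted p = 0.52). PLAC8, a small cysteine-rich protein, lay at 6.42, 6.49 and 6.60 in Hec-1A, against 10.27, 10.46 and 10.91 in RL95-2, at least 14.8-fold lower in Hec-1A, with a difference of -4.26 with PDGF-AA + 3G3 and -3.80 with PDGF-AA. The other 3 of the 5 smallest interaction p-values belonged to GRXCR1, POFUT1, which adds fucose to Notch receptors, and ARMC8, all at an adjusted p of 1 in limma.

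Both lines carried markers of simple epithelium. All 6 such markers were above the array median on all 12 arrays, and their mean level per array ranged from 10.56 to 10.73 in Hec-1A and from 10.67 to 10.92 in RL95-2. The surface protein EPCAM lay at 12.92, 13.06 and 13.15 in Hec-1A, against 12.01, 12.19 and 12.41 in RL95-2 (0.84 ± 0.07). The adhesion protein CDH1 did not pass the test, at 10.18, 10.34 and 10.50 in Hec-1A, against 10.25, 10.47 and 10.61 in RL95-2 (adjusted p = 0.29). The keratin KRT8 was lower in Hec-1A, at 9.22, 9.45 and 9.54 in Hec-1A, against 11.29, 11.53 and 11.72 in RL95-2, while the keratins KRT7 (0.55) and KRT18 (0.36, and 0.25 with adjusted p = 0.076 without normalization between arrays) were higher. Of the 13 tested genes in the full list of simple epithelium 4 were higher and 5 lower (median -0.08). Squamous markers lay near the array median in Hec-1A, where 1 of 6 was above it on all 6 arrays, against 4 of 6 in RL95-2. KRT13, a keratin of stratified epithelium, lay at 7.48, 7.60 and 7.83 in Hec-1A, against 11.90, 12.07 and 12.21 in RL95-2, a difference of -4.41 ± 0.07 with no overlap (adjusted p = 2.5e-16). Of 5 markers of Mullerian glands 3 were higher in Hec-1A and 0 lower. The fuller Mullerian list was mixed, with 6 of 12 tested genes higher and 4 lower (median 0.08). The 4 lower included FOXA1 (-1.23) and MSX1 (-1.08). PAX8 lay at 9.50, 9.60 and 9.72 in Hec-1A, against 8.27, 8.31 and 8.57 in RL95-2, and SOX17 at 7.60, 7.80 and 7.86 in Hec-1A, against 6.38, 6.43 and 6.53 in RL95-2, at least 2.21-fold higher. The receptors of oestrogen and progesterone, ESR1 and PGR, did not pass the filter in either line, with highest values of 6.66 and 6.53 in Hec-1A and 6.59 and 6.50 in RL95-2. RNA came from whole cultures, so fewer cells with a transcript and less of it per cell cannot be told apart.

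Most markers of other cell types were near the array median in both lines. The mean of 6 fibroblast markers per array was 6.58 to 6.65 in Hec-1A and 6.67 to 6.76 in RL95-2, and COL1A1, a chain of type I collagen, was the called one of these (-0.55 ± 0.05). In the longer fibroblast and stromal list 5 of 14 tested genes were lower in Hec-1A and 0 higher. Beside COL1A1 these were FBLN1, an elastic fibre protein bright in RL95-2 and described further on, the collagen chains COL5A1 (-1.10) and COL5A2 (-0.29), and FAP (-0.31), a peptidase of activated fibroblasts. The means of 8 leukocyte markers were 6.86 to 6.95 in Hec-1A and 6.84 to 6.92 in RL95-2, with 0 of 8 called and with CD68, a lysosomal protein that epithelial lines also express, as the 1 marker above the median on all arrays. In the longer leukocyte list 2 of 11 were higher, CD8A (0.15), a chain of the T cell coreceptor, and LAPTM5 (0.14), a lysosomal protein, and 0 lower. CD8A was not called without the 3 RL95-2 arrays (0.14, adjusted p = 0.1) or the second Hec-1A pair (0.13, adjusted p = 0.062). LAPTM5 was not called without the first Hec-1A pair (0.11, adjusted p = 0.099) or the second (0.16, adjusted p = 0.069), nor, with adjusted p of 0.051 to 0.098, when any of 9 of the 12 arrays was left out. Endothelial markers had means of 6.49 to 6.62 in Hec-1A and 6.65 to 6.71 in RL95-2, and CDH5, the cadherin of endothelial junctions, was called, at 6.35, 6.49 and 6.57 in Hec-1A, against 7.05, 7.27 and 7.38 in RL95-2. Of the 6 tested genes in the longer endothelial list 2 were lower, CDH5 and the secreted protein EGFL7 (-0.18), which stood at -0.14 without the first Hec-1A pair (adjusted p = 0.081), and 0 higher. The defining leukocyte marker PTPRC reached at most 6.70 in Hec-1A and 6.68 in RL95-2.

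**Figure D2:**
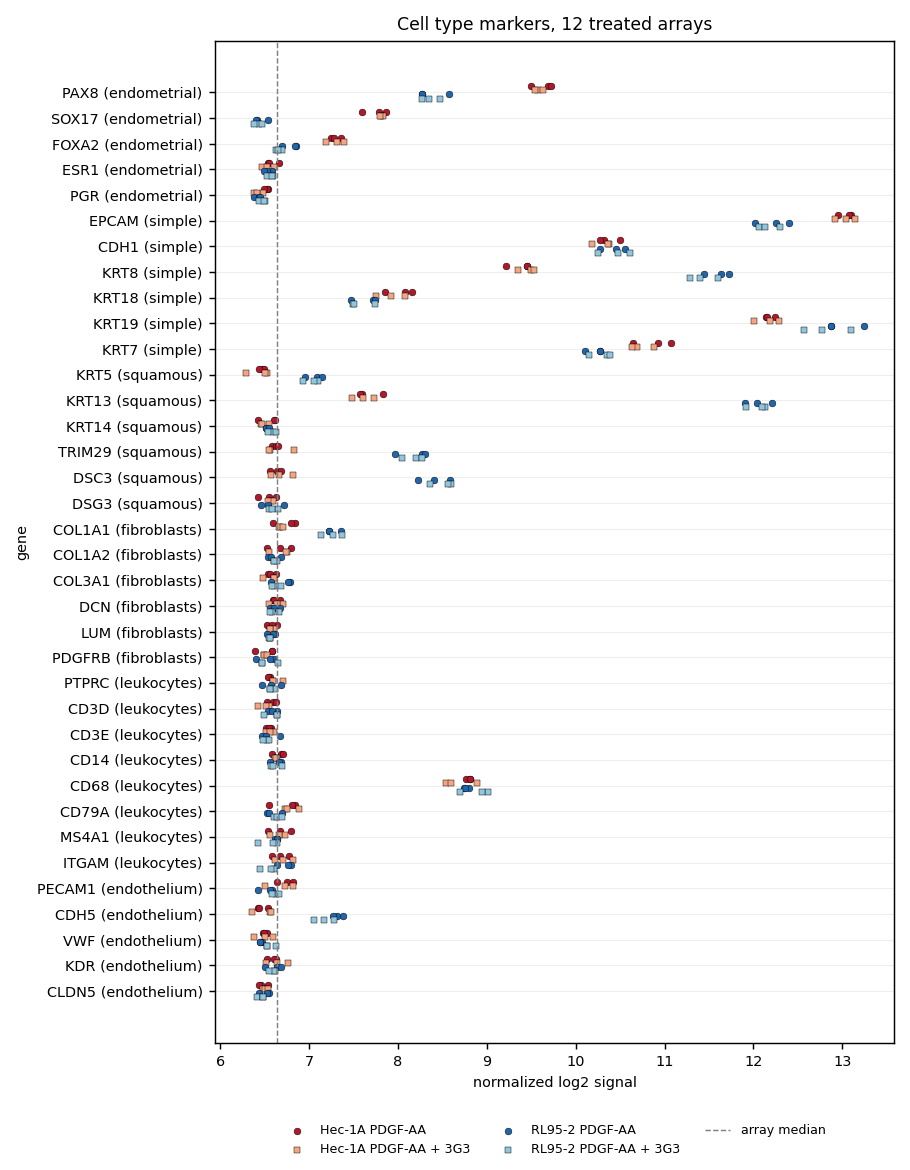
Each row is a cell type marker and each point 1 array, with the normalized log2 signal on the horizontal axis, Hec-1A in red shades, RL95-2 in blue shades, and the array median as a dashed line. KRT13, TRIM29 and DSC3 lie lower in Hec-1A and PAX8 and SOX17 higher, while most fibroblast, leukocyte and endothelial markers lie near the dashed line in both lines.

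The largest differences on the higher side in Hec-1A were those of SPP1 and FXYD2. SPP1 (ILMN_1651354, chromosome 4), the secreted phosphoprotein osteopontin, lay at 12.15, 12.58 and 13.02 in Hec-1A, against 6.59, 6.66 and 6.75 in RL95-2. Every Hec-1A array was far above every RL95-2 array, a difference of 5.89 ± 0.12 (limma adjusted p = 5.1e-15). FXYD2 (ILMN_2289593, chromosome 11), a regulator of the sodium pump in kidney tubules, lay at 11.88, 12.45 and 12.59 in Hec-1A, against 6.39, 6.45 and 6.72 in RL95-2 (5.87 ± 0.09). RL95-2 was at about the array median for both genes, and no array of one line came near the other line. TM4SF1, a membrane protein of the L6 family, lay at 12.16, 12.24 and 12.37 in Hec-1A, against 6.71, 6.74 and 6.86 in RL95-2 (5.48 ± 0.04). Its relative TM4SF4 lay at 11.27, 11.45 and 11.66 in Hec-1A, against 6.36, 6.47 and 6.54 in RL95-2, at least 28.4-fold higher in Hec-1A. AXL, a receptor tyrosine kinase for the ligand GAS6, lay at 11.54, 11.84 and 11.94 in Hec-1A, against 6.85, 6.92 and 6.94 in RL95-2 (4.89 ± 0.05, adjusted p = 1e-17). DPP4, a membrane peptidase that trims peptide hormones, lay at 10.57, 10.71 and 11.01 in Hec-1A, against 6.53, 6.59 and 6.69 in RL95-2 (4.15 ± 0.06). The ranking took only called genes without overlap between the lines. The lack of overlap in these 6, and in the rest of the 15 highest, was set by that choice. Of all tested genes 38% had no overlap.

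Also among the 15 highest, AKR1C3, a reductase of steroids and prostaglandins, lay at 11.61, 11.83 and 12.07 in Hec-1A, against 7.23, 7.47 and 7.69 in RL95-2 (4.36 ± 0.08). CYB5A, the electron carrier cytochrome b5, lay at 10.70, 10.93 and 11.04 in Hec-1A, against 6.51, 6.53 and 6.57 in RL95-2, at least 19.1-fold higher. RRAGA, a Rag GTPase that brings the kinase mTORC1 to lysosomes, lay at 10.45, 10.52 and 10.61 in Hec-1A, against 6.46, 6.49 and 6.55 in RL95-2, at least 14.8-fold higher. Both were at or below the array median on all RL95-2 arrays. SYT13, an atypical synaptotagmin, lay at 10.56, 10.59 and 10.83 in Hec-1A, against 6.49, 6.58 and 6.62 in RL95-2, at least 16-fold higher, and IGF2BP2, which binds messenger RNA, differed by 4.05 ± 0.07. The orphan receptor GPRC5C (4.24), the calcium channel of the endoplasmic reticulum TMCO1 (4.20), HTATIP2 (4.07) and the nuclear protein TRNP1 (3.99) completed the 15 highest.

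The transcripts lowest in Hec-1A were led by S100A9, which forms the calcium-binding protein calprotectin with S100A8. S100A9 (ILMN_1750974, chromosome 1) lay at 6.47, 6.55 and 6.58 in Hec-1A, against 13.36, 13.57 and 13.65 in RL95-2, at least 120-fold lower in Hec-1A (adjusted p = 1.7e-19). S100A8 (ILMN_1729801, chromosome 1) lay at 6.56, 6.61 and 6.64 in Hec-1A, against 12.16, 12.32 and 12.53 in RL95-2, at least 51.5-fold lower. All 6 Hec-1A arrays were at or below the array median for both, while every RL95-2 array was above 12 on the log2 scale. H19 (ILMN_2148527, chromosome 11), an imprinted noncoding RNA, lay at 6.57, 6.66 and 6.73 in Hec-1A, against 13.36, 13.49 and 13.56 in RL95-2 (-6.81 ± 0.05, adjusted p = 1.7e-19). CCND2, a D-type cyclin of the G1 phase, lay at 6.40, 6.49 and 6.55 in Hec-1A, against 11.98, 12.36 and 12.45 in RL95-2, at least 50.6-fold lower. CRABP2, which carries retinoic acid to its nuclear receptors, lay at 6.83, 7.03 and 7.22 in Hec-1A, against 12.54, 12.82 and 12.98 in RL95-2 (-5.77 ± 0.07). LCN2, a secreted binder of bacterial siderophores, lay at 6.82, 6.90 and 7.08 in Hec-1A, against 12.41, 12.67 and 12.76 in RL95-2 (-5.70 ± 0.06). PHGDH, the first enzyme of serine synthesis, lay at 6.60, 6.63 and 6.69 in Hec-1A, against 12.14, 12.34 and 12.65 in RL95-2 (-5.70 ± 0.07). The genes of this paragraph and the next too were ranked only among called genes without overlap between the lines.

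OLR1, a receptor of oxidized lipoprotein, lay at 6.45, 6.51 and 6.54 in Hec-1A, against 11.67, 12.08 and 12.20 in RL95-2, at least 40.7-fold lower in Hec-1A. ADIRF was at least 28.1-fold lower. ID3, an inhibitor of basic helix-loop-helix factors, lay at 7.93, 8.22 and 8.41 in Hec-1A, against 12.98, 13.19 and 13.41 in RL95-2 (-4.99 ± 0.08), so that Hec-1A still had signal above the array median. ADM, the vasodilator peptide adrenomedullin, lay at 7.99, 8.17 and 8.45 in Hec-1A, against 12.82, 12.99 and 13.11 in RL95-2 (-4.79 ± 0.08). Hec-1A retained signal for ADM as well. SLC2A3, a glucose transporter, lay at 6.75, 6.83 and 6.93 in Hec-1A, against 11.54, 11.68 and 11.88 in RL95-2 (-4.85 ± 0.06). UQCRH, a subunit of respiratory complex III, lay at 6.54, 6.58 and 6.63 in Hec-1A, against 12.08, 12.53 and 12.93 in RL95-2, which makes it at least 58.8-fold lower. UQCRHL, a copy of it with almost the same sequence, lay at 7.11, 7.22 and 7.30 in Hec-1A, against 12.91, 13.11 and 13.28 in RL95-2 (-5.90 ± 0.06). Cross-reading between these copies was not tested.

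**Figure D3:**
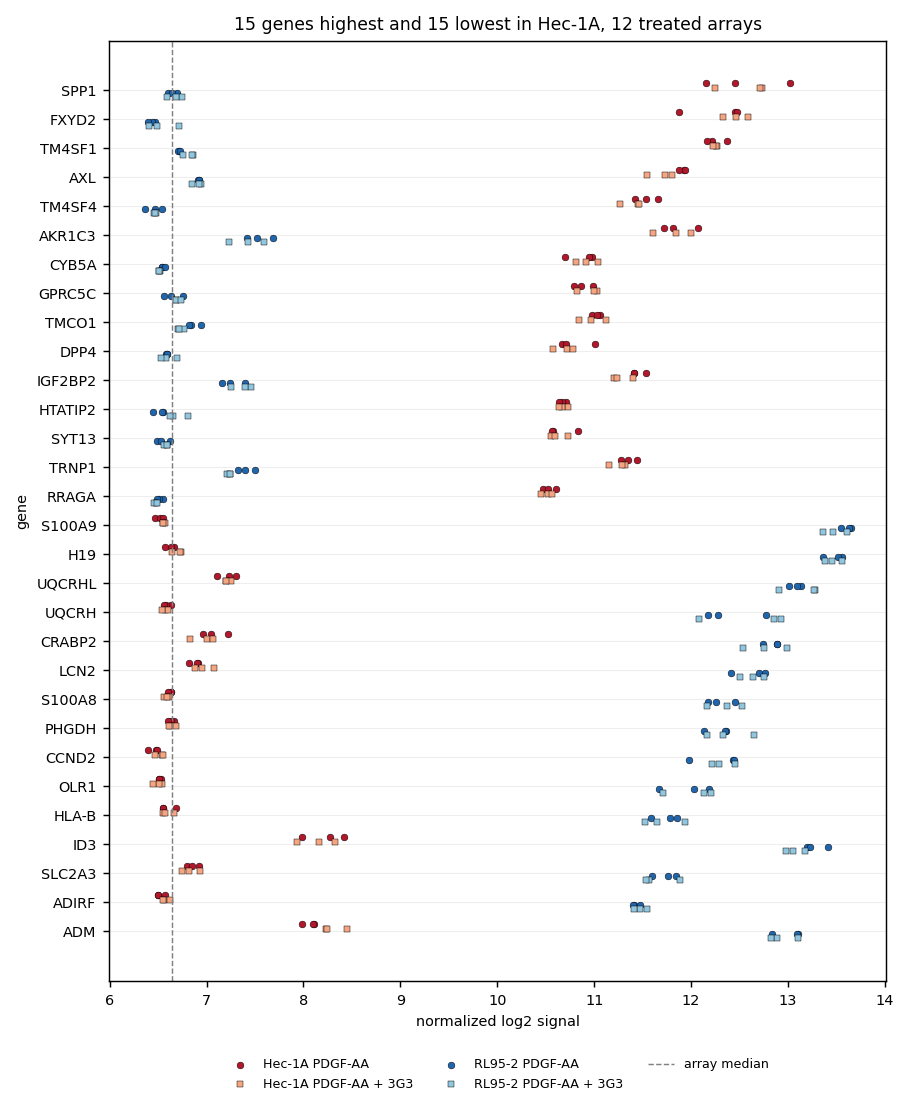
Rows are the 15 genes highest in Hec-1A, then the 15 lowest, and each point is 1 array, with the normalized log2 signal on the horizontal axis and the array median of 6.64 as a dashed line. Hec-1A (red) and RL95-2 (blue) do not overlap in any row, as the choice of genes required. The PDGF-AA + 3G3 arrays (squares) lie beside the PDGF-AA arrays (circles) of the same line.

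Of the 64 lists, that of Notch signalling had the lowest median. Of 19 tested members 15 were lower in Hec-1A and 1 higher (median -1.08), where 26.4% of all tested genes were lower. Lower by at least 2-fold were 11 of the 19, against 906 of all 28916 tested probes. The lines did not overlap for 15, against 38% of all tested genes. Of these 15, 14 were lower and 1, MFNG, higher. Of the 19, 6 passed the filter through RL95-2 alone, and over all 21 members on the array, tested or not, the median was -1.05. Ligands were lower: DLL1 lay at 6.49, 6.57 and 6.66 in Hec-1A, against 10.17, 10.38 and 10.60 in RL95-2 (-3.80 ± 0.06, adjusted p = 7e-16). JAG2 lay at 6.58, 6.67 and 6.79 in Hec-1A, against 9.79, 10.08 and 10.45 in RL95-2 (-3.44 ± 0.09). For both ligands the Hec-1A arrays were at about the array median, and JAG1 (-1.05) and DLL3 (-1.08) were lower with signal left in Hec-1A. Of the receptors, NOTCH3 lay at 7.29, 7.40 and 7.53 in Hec-1A, against 8.88, 9.16 and 9.41 in RL95-2 (-1.73 ± 0.07), NOTCH1 differed by -0.31, and NOTCH2 did not pass (0.11). The fringe LFNG, which adds sugar to the receptors, lay at 7.08, 7.20 and 7.30 in Hec-1A, against 9.24, 9.32 and 9.43 in RL95-2 (-2.13 ± 0.05), while the fringe MFNG was the 1 member higher (0.36) and RFNG did not pass (0.12).

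The 7 tested HES and HEY repressors, several of them known as direct outputs of the pathway, were lower in Hec-1A. HES4 lay at 9.30, 9.68 and 9.76 in Hec-1A, against 11.09, 11.27 and 11.40 in RL95-2 (-1.67 ± 0.09). HES1 lay at 7.27, 7.43 and 7.63 in Hec-1A, against 7.81, 7.97 and 8.04 in RL95-2 (-0.51 ± 0.06). HEYL lay at 6.48, 6.52 and 6.61 in Hec-1A, against 7.70, 7.81 and 8.0 in RL95-2, at least 2.28-fold lower, and HES2 at 6.50, 6.51 and 6.59 in Hec-1A, against 9.48, 9.60 and 9.72 in RL95-2, at least 7.79-fold lower. None of these 4 overlapped between the lines, where 38% of all tested genes had no overlap. HES6 (-1.48), HEY1 (-1.35), HEY2 (-0.23) and the feedback inhibitor NRARP (-0.51) were lower, and the ubiquitin ligase DTX1 did not pass (0.02). Members beyond DLL1, JAG2, HES2 and LFNG were named after their values were seen.

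**Figure D4:**
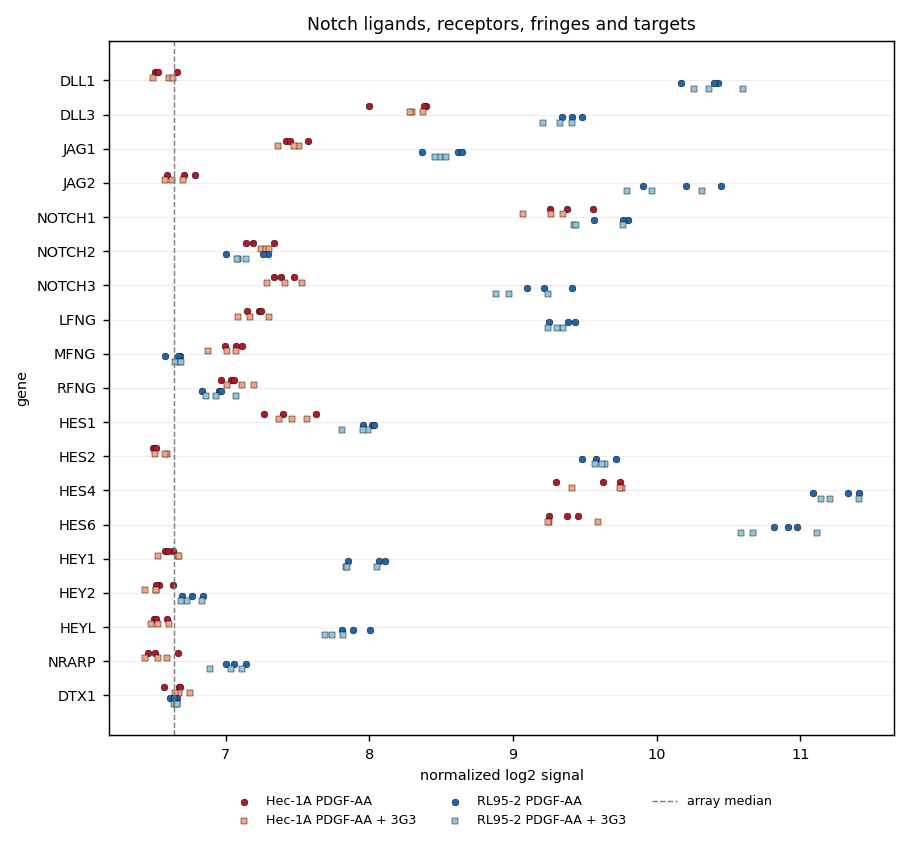
Rows are the 19 tested Notch genes ordered as ligands, receptors, fringes and targets, and each point is 1 array, with the normalized log2 signal on the horizontal axis and the array median as a dashed line. In 14 rows the red Hec-1A points lie wholly lower than the blue RL95-2 points, in the row of MFNG wholly higher, NOTCH1 is lower with overlap, and in the row of DLL1 Hec-1A lies at the dashed line.

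Since RBPJ acts on its targets through a short motif, the promoters of 3 of the 4 targets that hold its core are shown, chosen after their values were seen. The windows run from 250 bases before to 50 bases after the gene start, come from RefSeq on GRCh38.p14, and read 5′ to 3′ along the gene, with the motif GTGGGAA in capitals on either strand. In HES1 (chr3:194135898-194136197, plus strand) the match began 85 bases before the gene start, in HES4 (chr1:1000048-1000347, minus strand) 77 bases before it, and in HEYL (chr1:39639594-39639893, minus strand), on the opposite strand, 178 bases before it.
HES1: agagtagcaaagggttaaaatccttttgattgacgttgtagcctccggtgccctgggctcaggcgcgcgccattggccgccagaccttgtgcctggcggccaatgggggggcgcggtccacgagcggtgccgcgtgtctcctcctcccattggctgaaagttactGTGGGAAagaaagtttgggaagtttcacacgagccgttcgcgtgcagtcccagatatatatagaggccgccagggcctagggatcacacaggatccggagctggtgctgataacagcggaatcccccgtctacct
HES4: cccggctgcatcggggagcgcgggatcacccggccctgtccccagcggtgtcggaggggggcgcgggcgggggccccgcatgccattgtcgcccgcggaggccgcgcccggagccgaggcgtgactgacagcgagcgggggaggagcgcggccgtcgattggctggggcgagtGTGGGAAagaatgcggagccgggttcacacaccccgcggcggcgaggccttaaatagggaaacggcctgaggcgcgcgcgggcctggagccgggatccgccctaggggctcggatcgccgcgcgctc
HEYL: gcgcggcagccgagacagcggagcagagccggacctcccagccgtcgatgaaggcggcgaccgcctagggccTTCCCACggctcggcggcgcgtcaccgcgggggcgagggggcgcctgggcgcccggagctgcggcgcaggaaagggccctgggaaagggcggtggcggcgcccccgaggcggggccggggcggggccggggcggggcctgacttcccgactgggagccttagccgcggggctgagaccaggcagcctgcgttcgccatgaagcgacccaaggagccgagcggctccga
Of the 19 tested Notch genes 14 had a window, and 4 held the motif, the fourth being HEY2, which differed by -0.23. The motif was held by 6.25% of all 35116 windows in the RefSeq table. A match describes letters and is not a measured site.

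Growth factor receptors and their ligands differed in both directions. Beside AXL, higher in Hec-1A were the growth factor receptors FGFR4 (1.38), which was named after its value was seen, and the ERBB ligands TGFA (1.90 ± 0.06) and EREG (1.43 ± 0.06). GAS6, the ligand of AXL, ran the other way, at 6.52, 6.60 and 6.71 in Hec-1A, against 8.60, 8.89 and 9.03 in RL95-2 (-2.26 ± 0.07). The receptor EGFR lay at 8.06, 8.20 and 8.26 in Hec-1A, against 9.11, 9.33 and 9.56 in RL95-2 (-1.16 ± 0.07), and its partner ERBB3 was lower as well (-0.92). The fibroblast growth factor receptor FGFR3 lay at 7.84, 8.10 and 8.21 in Hec-1A, against 10.17, 10.53 and 10.69 in RL95-2 (-2.45 ± 0.07). Thus the ligands TGFA and EREG were higher in the line in which EGFR was lower. Of 12 tested ERBB receptors and ligands 6 were higher and 5 lower, and of 18 other receptor kinases and their ligands 4 and 8. Of the ephrins, membrane-bound ligands of Eph receptors, 2 were lower by over 2-fold, with EFNA1 at 8.61, 8.66 and 8.79 in Hec-1A, against 10.71, 10.76 and 10.80 in RL95-2 (-2.08 ± 0.04) and EFNB2 at -1.80 ± 0.06. The receptors EPHB4 (-1.14) and EPHA2 (0.85) differed in opposite directions, and the Eph list held 2 higher and 8 lower of 14.

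The binding proteins of insulin-like growth factors, which hold these hormones outside cells, differed widely between the lines. IGFBP7 lay at 6.55, 6.70 and 6.73 in Hec-1A, against 11.02, 11.14 and 11.44 in RL95-2 (-4.53 ± 0.07). IGFBP5 lay at 6.48, 6.58 and 6.66 in Hec-1A, against 9.96, 10.16 and 10.26 in RL95-2 (-3.57 ± 0.05), and IGFBP3, bright in both lines, at 11.43, 11.84 and 12.10 in Hec-1A, against 13.52, 13.67 and 13.77 in RL95-2 (-1.83 ± 0.08). IGFBP6 ran the other way, at 10.05, 10.31 and 10.53 in Hec-1A, against 6.52, 6.58 and 6.61 in RL95-2, at least 12.8-fold higher. The lines did not overlap for IGFBP7, IGFBP5, IGFBP3 or IGFBP6, where 38% of all tested genes had no overlap. IGFBP2 was higher as well (1.33 ± 0.05) and IGFBP1 did not pass (-0.02), both named after their values were seen. IGF2R, the receptor that clears IGF2, was lower (-2.51 ± 0.07), and IGF2 itself, which lies beside H19 in the genome, did not pass (-0.08, named after its value was seen). Of 18 tested members of the axis 5 were higher and 8 lower (median -0.05).

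Feedback genes of the ERK pathway, which dampen growth factor signals, were higher in Hec-1A in 14 of 21 tested members and lower in 2 (median 0.61). The phosphatase DUSP5 lay at 10.91, 11.01 and 11.07 in Hec-1A, against 9.09, 9.16 and 9.31 in RL95-2 (1.83 ± 0.05). The early response gene IER3 (1.78) and the ETS factor ETV5 (1.57) were higher, as were the inhibitors SPRY2 (1.28) and SPRY4 (1.22), named after their values were seen. PHLDA1 stood against them, at 8.55, 8.78 and 9.02 in Hec-1A, against 10.70, 10.99 and 11.25 in RL95-2 (-2.20 ± 0.09). BMP signalling acts through SMAD proteins and the ID inhibitors, and 12 of its 22 tested genes were lower, 5 higher (median -0.14). BAMBI, a decoy receptor, lay at 7.22, 7.31 and 7.50 in Hec-1A, against 10.90, 11.08 and 11.24 in RL95-2 (-3.77 ± 0.06), and the ligand BMP7 at 6.43, 6.56 and 6.64 in Hec-1A, against 8.93, 9.20 and 9.35 in RL95-2, at least 5.75-fold lower. ID1 differed by -1.67 ± 0.07, beside the larger difference of ID3. In the list of TGF-beta genes, 6 of 16 were higher and 5 lower, a split that was 5 and 5 when arrays were scaled to a common median. Its largest differences were PMEPA1 (2.51 ± 0.08), an inhibitor of SMAD signalling, TGFBR2 (1.32), the matrix protein TGFBI (1.32) and the activin subunit INHBB (-1.45).

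Wnt genes were higher in 7 and lower in 11 of 28 tested (median -0.07). SFRP1, a secreted Wnt inhibitor, lay at 6.51, 6.59 and 6.80 in Hec-1A, against 8.83, 9.19 and 9.29 in RL95-2 (-2.49 ± 0.08). The secreted protein DKK3 was higher by at least 2.73-fold, and the factor LEF1 (-1.43) and the ligand WNT4 (-1.14) were lower. Target genes of YAP and TEAD divided as well, 8 higher and 11 lower of 21. F3, tissue factor, lay at 10.59, 10.64 and 10.77 in Hec-1A, against 7.87, 7.99 and 8.26 in RL95-2 (2.64 ± 0.06), while FJX1 stood at -2.51 ± 0.10. The target CCN2 did not pass (0.00) and CCN1 was higher (0.37), both named after their values were seen.

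Transcription factors of lineage differed between the lines. Of 25 tested SOX, FOX, GATA and KLF factors 17 were lower in Hec-1A and 5 higher (median -0.32). Of these 25, 9 passed the filter through RL95-2 alone and 0 through Hec-1A alone. Over all 27 on the array, tested or not, the median was -0.30. FOXD1, a forkhead factor of kidney stroma, lay at 6.67, 6.75 and 6.87 in Hec-1A, against 9.69, 9.80 and 10.01 in RL95-2 (-3.05 ± 0.06). KLF4, a factor of epithelial differentiation, stood at -1.93 ± 0.05, and GATA3, a luminal factor of breast and urothelium, lay at 6.50, 6.54 and 6.62 in Hec-1A, against 7.97, 8.30 and 8.48 in RL95-2, at least 3.11-fold lower. KLF6 was higher, at 11.14, 11.38 and 11.49 in Hec-1A, against 8.93, 9.16 and 9.31 in RL95-2 (2.22 ± 0.07). In the HOX clusters 11 of 22 were lower and 3 higher (median -0.12). Of the 22, 8 passed the filter through RL95-2 alone and 1 through Hec-1A alone. The median over all 27 on the array was -0.04. HOXC13, known for hair and nail keratins, lay at 7.07, 7.19 and 7.34 in Hec-1A, against 9.46, 9.55 and 9.86 in RL95-2 (-2.39 ± 0.07), and the bounds for HOXD11 and HOXD13 were at least 2.82-fold lower and at least 2.02-fold lower. HOXA2, a gene of the hindbrain and face, was the largest higher one, at 8.88, 8.99 and 9.17 in Hec-1A, against 6.63, 6.71 and 6.76 in RL95-2 (2.29 ± 0.05). In the Mullerian list of 12, 6 were higher and 4 lower, with FOXA1 (-1.23) and MSX1 (-1.08) on the lower side and PAX8 and SOX17 on the higher. Of 9 tested factors and markers of mesenchymal transition 4 were lower and 0 higher, 44.4% called against 53.5% of all tested genes. Of the 9, 3 passed the filter through RL95-2 alone and 0 through Hec-1A alone. Their median was -0.13, and over all 15 on the array it was -0.01. SNAI2 lay at 6.82, 7.06 and 7.15 in Hec-1A, against 9.83, 9.90 and 9.99 in RL95-2 (-2.87 ± 0.05). TWIST1 stood at -1.39, and TWIST2 was at least 2.71-fold lower. VIM (-0.04) and FN1 (0.04), named after their values were seen, did not pass.

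Several genes typical of kidney tubules and liver were higher in Hec-1A. Of 12 tested members 10 were higher in Hec-1A and 0 lower (median 1.33), where 27.1% of all tested genes were higher. Of the 12, 7 passed the filter through Hec-1A alone, and over all 21 members on the array, tested or not, the median was 0.05. SPP1, FXYD2, TM4SF4 and DPP4 led it and were among the 15 highest of all genes. The kidney cadherins CDH6, at 8.33, 8.55 and 8.56 in Hec-1A, against 6.46, 6.58 and 6.66 in RL95-2 (1.93 ± 0.05), and CDH16 (0.44) were higher too, as was FGB, a fibrinogen chain, which was at least 3.25-fold higher. FGA (-0.03), another fibrinogen chain, did not pass, and 9 other listed genes on the array did not reach the filter. CDH16, FGB and FGA were named after their values were seen. ATP1B1, the beta subunit of the sodium pump that FXYD2 regulates, lay at 10.72, 10.81 and 10.95 in Hec-1A, against 8.26, 8.35 and 8.41 in RL95-2 (2.48 ± 0.05). FXYD5, of the same family as FXYD2, lay lower, at 9.11, 9.39 and 9.47 in Hec-1A, against 11.79, 11.97 and 12.15 in RL95-2 (-2.62 ± 0.07), and the chloride channel CLIC3 was at least 7.72-fold lower.

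Claudins and partners, which seal tight junctions, were higher in Hec-1A in 12 of 15 tested and lower in 1 (median 0.44). Of all tested genes 27.1% were higher. Of the 15, 2 passed the filter through Hec-1A alone and 0 through RL95-2 alone. The median over all 17 on the array was 0.21. CLDN1 lay at 11.38, 11.57 and 11.76 in Hec-1A, against 8.85, 9.0 and 9.12 in RL95-2 (2.57 ± 0.07). CLDN16, the claudin of magnesium uptake in the kidney, lay at 9.17, 9.30 and 9.61 in Hec-1A, against 6.52, 6.59 and 6.62 in RL95-2, at least 6.44-fold higher, and CLDN3 (1.68) and the scaffold TJP1 (1.18) were higher. Of 9 desmosome genes 5 were lower and 1 higher (median -0.19). DSC3 lay at 6.56, 6.65 and 6.81 in Hec-1A, against 8.22, 8.49 and 8.60 in RL95-2 (-1.80 ± 0.07), JUP stood at -0.46, and DSG2, the desmoglein of simple epithelium, was the higher one (0.81 ± 0.08). CDH3, the placental cadherin, lay at 6.47, 6.55 and 6.60 in Hec-1A, against 9.53, 9.60 and 9.71 in RL95-2, at least 7.86-fold lower in Hec-1A. In the list of cadherins, protocadherins and the catenins that bind cadherins, 5 of 14 were higher and 6 lower. The catenins CTNNA1 (0.85) and CTNNB1 (0.78) were higher, and the protocadherins PCDH7 (-1.58) and PCDHB2 (-1.37) lower. Of 14 genes of stratified epithelium 10 were lower and 0 higher (median -0.53), including KRT15 (-1.88 ± 0.05) and SERPINB5 (-1.68 ± 0.16). Of the 14, 4 passed the filter through RL95-2 alone and 0 through Hec-1A alone. The median over all 18 on the array was -0.33.

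Some markers of simple epithelium were lower in Hec-1A as well. CD24, a surface glycoprotein, lay at 9.62, 9.68 and 9.99 in Hec-1A, against 12.56, 12.66 and 12.85 in RL95-2 (-2.95 ± 0.07), and ELF3, an epithelial ETS factor, at -2.29 ± 0.05. GRHL2, a grainyhead factor, followed (-1.14). Matrix genes went in both directions. VCAN, a large proteoglycan, lay at 10.21, 10.34 and 10.93 in Hec-1A, against 6.50, 6.55 and 6.61 in RL95-2, at least 13.8-fold higher. COL18A1, the source of endostatin, lay at 10.30, 10.52 and 10.62 in Hec-1A, against 7.32, 7.49 and 7.69 in RL95-2 (2.99 ± 0.07). LAMB3, a chain of a laminin that anchors epithelium, was higher (2.41 ± 0.05), and NID2, which links laminin to collagen, at least 2.73-fold higher. FBLN1, an elastic fibre protein, lay at 6.49, 6.55 and 6.59 in Hec-1A, against 11.19, 11.35 and 11.50 in RL95-2, at least 26-fold lower, and THBS1, an inhibitor of angiogenesis, stood at -2.44 ± 0.07. The type IV collagen chain COL4A5 was lower (-2.20 ± 0.07). Integrins, the receptors of matrix, were higher in 6 of 18 and lower in 3, with ITGB3 at least 3.52-fold and ITGA5 at least 1.92-fold higher and ITGA3 at 1.32 ± 0.09.

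Of 25 tested proteases and inhibitors 14 were lower in Hec-1A and 6 higher (median -0.23). SERPINE2, an inhibitor of thrombin and plasminogen activators, lay at 6.72, 6.76 and 6.87 in Hec-1A, against 11.24, 11.36 and 11.68 in RL95-2 (-4.64 ± 0.07). The lysosomal proteases CTSB, at 9.0, 9.11 and 9.34 in Hec-1A, against 12.13, 12.30 and 12.51 in RL95-2 (-3.16 ± 0.07), and CTSH (-2.37 ± 0.09) were lower with strong signal left in Hec-1A. Genes that curb coagulation divided: PROS1, the protein S cofactor, lay at 9.99, 10.04 and 10.22 in Hec-1A, against 6.67, 6.79 and 6.84 in RL95-2 (3.28 ± 0.05). TFPI, the inhibitor of tissue factor, lay at 9.48, 9.62 and 9.73 in Hec-1A, against 7.03, 7.08 and 7.15 in RL95-2 (2.53 ± 0.05), while its relative TFPI2 lay at 7.81, 7.97 and 8.08 in Hec-1A, against 10.03, 10.35 and 10.55 in RL95-2 (-2.34 ± 0.08). PROS1 and TFPI were thus higher together with F3, the tissue factor that TFPI inhibits. Of 16 mucins and secreted gland products 5 were lower and 2 higher. SLPI, an inhibitor of leukocyte elastase, lay at 6.65, 6.89 and 7.15 in Hec-1A, against 9.18, 9.75 and 10.36 in RL95-2 (-2.86 ± 0.16), and OLFM4 was at least 5.55-fold lower and AGR2 at least 5.54-fold lower. The membrane mucins MUC4, at least 2.23-fold, and MUC1 (0.49), named after their values were seen, were the 2 higher.

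S100 proteins other than S100A8 and S100A9 were mostly higher in Hec-1A. Of 15 tested members 8 were higher and 6 lower (median 0.47). In 14 the lines did not overlap, against 38% of all tested genes. Of the 15, 4 passed the filter through RL95-2 alone and 1 through Hec-1A alone. The median over all 17 on the array was 0.06. S100A4, linked to cell motility, lay at 12.81, 12.91 and 13.03 in Hec-1A, against 9.07, 9.49 and 9.71 in RL95-2 (3.49 ± 0.08). S100A13 stood at 1.85 ± 0.07. Among the annexins, which bind membranes when calcium rises, 7 of 11 were higher and 2 lower, with ANXA3 at 12.26, 12.35 and 12.46 in Hec-1A, against 8.76, 9.01 and 9.18 in RL95-2 (3.37 ± 0.06), ANXA1 at 1.07 ± 0.07 and ANXA8 at least 2.24-fold lower. Tetraspanins and TM4SF proteins were higher in 10 of 21 and lower in 5, with CD82 (-1.79 ± 0.05) and TSPAN13 (-1.53) the lowest.

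Enzymes of cholesterol synthesis were higher in Hec-1A in 19 of 20 tested members and lower in 1 (median 1.22), where 27.1% of all tested genes were higher. In 17 the lines did not overlap, against 38% of all tested genes. Early in the route, ACAT2 lay at 9.72, 10.16 and 10.38 in Hec-1A, against 6.68, 6.80 and 6.86 in RL95-2 (3.29 ± 0.11) and HMGCS1 stood at 1.38. The isoprenoid enzymes IDI1 (1.79) and FDPS (1.34) followed. Of the sterol enzymes, EBP lay at 10.10, 10.15 and 10.27 in Hec-1A, against 6.49, 6.59 and 6.81 in RL95-2 (3.55 ± 0.06, adjusted p = 6e-16). DHCR7, the last enzyme of the route, lay at 10.44, 10.51 and 10.60 in Hec-1A, against 8.19, 8.38 and 8.45 in RL95-2 (2.17 ± 0.05), and MSMO1 stood at 2.04 ± 0.06. SQLE, which makes the epoxide of squalene, was the exception (-0.42). At least 2-fold differences, all higher, were called for 11 members, and HMGCS1, IDI1, FDPS and SQLE were named after their values were seen. Of 19 fatty acid enzymes 11 were higher and 3 lower (median 0.23). ME1, malic enzyme, a source of NADPH, lay at 10.14, 10.24 and 10.36 in Hec-1A, against 6.46, 6.55 and 6.65 in RL95-2 (3.69 ± 0.05), and the desaturase FADS1 was at least 4.5-fold higher. The desaturase SCD5 was at least 4.43-fold lower.

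Enzymes of serine and glycine metabolism differed in both directions. Of 17 serine, glycine and one-carbon enzymes 9 were lower in Hec-1A and 6 higher (median -0.16). Beside PHGDH, the glycine-cleaving enzyme GLDC lay at 7.99, 8.17 and 8.25 in Hec-1A, against 11.52, 11.72 and 11.86 in RL95-2 (-3.55 ± 0.06), and the mitochondrial folate enzyme MTHFD2 stood at -1.49 ± 0.06. PSAT1 (-0.43), the second enzyme of serine synthesis, was lower and PSPH (0.73), the last, higher, so the 3 steps did not differ alike. PSAT1 was named after its value was seen. The amino acid response, whose genes are targets of the factor ATF4, had 14 lower and 5 higher of 21 (median -0.37). The transporter of large neutral amino acids SLC7A5 lay at 9.70, 9.86 and 10.08 in Hec-1A, against 12.26, 12.55 and 12.74 in RL95-2 (-2.65 ± 0.08), and DDIT4, an inhibitor of mTORC1, at -2.27 ± 0.08. CEBPB stood at -2.03 ± 0.08. The glutamate transporter SLC1A3 (-3.03 ± 0.06) and the glycine transporter SLC6A9 (-1.51) were lower too, and solute carriers as a list had 12 lower and 5 higher of 23.

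Glycolysis and hypoxia genes were higher in 17 of 31 tested and lower in 8 (median 0.23), with the largest differences on the lower side. HK1, the hexokinase that traps glucose in cells, lay at 8.03, 8.24 and 8.35 in Hec-1A, against 11.43, 11.64 and 11.89 in RL95-2 (-3.43 ± 0.09), beside SLC2A3 and ADM. CA12, a carbonic anhydrase of the cell surface, lay at 8.32, 8.48 and 8.57 in Hec-1A, against 6.44, 6.59 and 6.73 in RL95-2 (1.87 ± 0.06). Steroid-handling enzymes differed in opposite directions. HSD17B2, which inactivates oestradiol, lay at 6.37, 6.49 and 6.56 in Hec-1A, against 10.05, 10.34 and 10.53 in RL95-2, at least 12.9-fold lower in Hec-1A. HSD17B11 lay at 8.54, 9.45 and 10.50 in Hec-1A, against 6.55, 6.58 and 6.71 in RL95-2 (2.85 ± 0.22), with a wide spread in Hec-1A. AKR1C4 stood at 2.47 ± 0.06, and whether its probe reads its relatives AKR1C2 and AKR1C3 was not tested. Of 19 tested steroid enzymes 9 were higher and 3 lower. Aldehyde dehydrogenases and retinoid genes divided, 8 higher and 10 lower of 24, with the retinoic acid receptor RARA (1.89 ± 0.08) against CRABP2.

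Genes of glutathione and of oxidant defence were higher in 13 of 29 and lower in 10, a split of 10 and 11 when arrays were scaled to a common median. GSTM1 lay at 9.08, 9.26 and 9.54 in Hec-1A, against 6.42, 6.48 and 6.59 in RL95-2, at least 6.22-fold higher, with GSTM2, a close relative, at least 4.91-fold higher. GSTT1 was at least 3.04-fold lower. Cross-reading between GSTM members was not tested. The thioredoxin reductase TXNRD1 was higher (1.5 ± 0.05). Metallothioneins, small metal-binding proteins with near-identical members, had MT2A at 10.99, 11.46 and 11.55 in Hec-1A, against 13.10, 13.15 and 13.26 in RL95-2 (-1.77 ± 0.08) and MT1F at 1.08 ± 0.08. Together with zinc transporters, they numbered 5 higher and 9 lower of 16. The export pump ABCC3 was higher (2.13 ± 0.08) and ABCB6 lower (-1.24 ± 0.06).

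Antigen presentation genes were mostly lower in Hec-1A. Of 22 tested genes 17 were lower and 1 was higher (median -0.73), where 26.4% of all tested genes were lower. The lines did not overlap for 17 of them, against 38% of all tested genes. HLA-B lay at 6.55, 6.56 and 6.68 in Hec-1A, against 11.53, 11.72 and 11.94 in RL95-2 (-5.13 ± 0.07). HLA-F lay at 6.41, 6.50 and 6.57 in Hec-1A, against 9.90, 10.05 and 10.12 in RL95-2, at least 10.5-fold lower, and HLA-E at 7.87, 8.0 and 8.21 in Hec-1A, against 10.60, 10.68 and 10.95 in RL95-2 (-2.72 ± 0.07). Class I genes are alike in sequence, and cross-reading between their probes was not tested. B2M, their shared light chain, was lower (-0.59), as were the peptide transporter TAP1 (-1.23) and the immunoproteasome subunits PSMB8 (-1.35) and PSMB10 (-1.52). HLA-C did not pass (-0.15). B2M, TAP1, PSMB8 and HLA-C were named after their values were seen.

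Interferon response genes, in contrast, were balanced in count, with 11 higher and 11 lower of 28 (median 0.02). By at least 2-fold, 1 was higher and 5 were lower. BST2, which tethers budding virus, lay at 6.55, 6.63 and 6.81 in Hec-1A, against 10.81, 10.93 and 11.09 in RL95-2 (-4.31 ± 0.04). ISG15, a ubiquitin-like protein, lay at 10.58, 11.08 and 11.33 in Hec-1A, against 8.54, 8.71 and 8.93 in RL95-2 (2.33 ± 0.08). The factor IRF1 (-2.26 ± 0.08) and the RNA sensor IFIH1 (-2.0 ± 0.05) were lower. Of 29 NF-kB genes and inflammatory mediators 19 were lower and 1 higher (median -0.31). Of the 29, 8 passed the filter through RL95-2 alone and 1 through Hec-1A alone. The median over all 32 on the array was -0.27. The chemokine CXCL16 lay at 7.50, 7.57 and 7.67 in Hec-1A, against 11.32, 11.51 and 11.63 in RL95-2 (-3.92 ± 0.06). CXCL1 lay at 6.95, 7.04 and 7.55 in Hec-1A, against 10.46, 10.87 and 11.03 in RL95-2 (-3.70 ± 0.11), and NFKBIA, the inhibitor that NF-kB induces, at 10.04, 10.26 and 10.46 in Hec-1A, against 12.40, 12.61 and 12.87 in RL95-2 (-2.38 ± 0.09). The cytokine LIF, named after its value was seen, was the 1 higher member (0.71). CASP1, the caspase that matures interleukins, lay at 6.42, 6.49 and 6.59 in Hec-1A, against 9.35, 9.49 and 9.79 in RL95-2, at least 7.48-fold lower, and its relative CASP4 stood at -1.37 ± 0.08.

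Of 22 cyclins and inhibitors of the G1 phase 6 were higher and 9 lower (median -0.03). CCND1, the D cyclin of most epithelia, was higher in Hec-1A, at 12.85, 13.21 and 13.31 in Hec-1A, against 11.48, 11.73 and 11.94 in RL95-2 (1.39 ± 0.08), opposite to CCND2. CDKN1B, an inhibitor of cyclin-dependent kinases, was lower (-1.09 ± 0.05). Of 37 genes of S phase and mitosis 18 were lower and 8 higher, with a median of -0.18 and CENPF (-1.10) as the 1 member past 2-fold. Mismatch repair genes, often lost in endometrial cancer, had 2 higher and 3 lower of 9, among them MSH6 (-0.34 ± 0.07, adjusted p = 0.00068), for which the lines overlapped. p53 targets had 5 higher and 7 lower of 21, led by TP53I3 (1.29 ± 0.04) and GADD45A (-1.31 ± 0.09). Of 22 endometrial cancer drivers 10 were higher and 7 lower. ARID1A, a chromatin remodeller often mutated in this cancer, lay at 10.28, 10.42 and 10.51 in Hec-1A, against 8.78, 8.83 and 8.89 in RL95-2 (1.59 ± 0.05). The apoptosis inhibitor BCL2L1 was higher, at 12.22, 12.35 and 12.44 in Hec-1A, against 10.19, 10.50 and 10.73 in RL95-2 (1.86 ± 0.08).

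Of 18 chaperones and response genes of the endoplasmic reticulum 12 were lower and 4 higher (median -0.37), including the ubiquitin ligase SYVN1 (-1.20 ± 0.08) and the factor XBP1 (-1.11 ± 0.08). HSPB1, a small heat shock protein, lay at 10.67, 10.88 and 10.99 in Hec-1A, against 13.33, 13.56 and 13.67 in RL95-2 (-2.70 ± 0.06), and CRYAB, of the same family, was at least 3.17-fold lower. HSPA4 was higher (1.32 ± 0.07), and the heat shock list as such had 6 higher and 7 lower of 18. In respiratory complex III 9 lower and 1 higher were counted among 13 genes (median -0.37), and beyond UQCRH and UQCRHL the core subunit UQCRC2 lay at 8.73, 8.97 and 9.16 in Hec-1A, against 10.37, 10.55 and 10.77 in RL95-2 (-1.60 ± 0.08). UQCRB, another subunit, varied widely within both lines, which overlapped, at 7.17, 7.98 and 9.32 in Hec-1A, against 8.26, 9.92 and 10.60 in RL95-2 (-1.56 ± 0.42, adjusted p = 0.0063). Without the 3 RL95-2 arrays that lay to one side, it was not called (-0.73, adjusted p = 0.16). Complexes I and IV had 15 lower and 3 higher of 29 (median -0.27), with 0 past 2-fold. Cytosolic ribosomal proteins had 14 lower and 9 higher of 40 (median -0.10), and RPL14 was the 1 past 2-fold (1.17 ± 0.06).

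Of 23 tested genes of actin and smooth muscle proteins 10 were higher and 5 lower. CALD1, caldesmon, lay at 9.21, 9.34 and 9.71 in Hec-1A, against 6.51, 6.66 and 6.69 in RL95-2 (2.76 ± 0.07), and the tropomyosin TPM1 at 9.72, 9.87 and 10.03 in Hec-1A, against 12, 12.11 and 12.18 in RL95-2 (-2.23 ± 0.06). Both bind actin filaments, and they differed in opposite directions. Among imprinted genes H19 stood apart: 5 of 18 were higher and 4 lower, with SNRPN at 1.34 ± 0.07 and PEG10 at least 2.52-fold lower. Of 9 tested cancer-testis antigens 2 were higher, PRAME (0.64 ± 0.06) and GAGE4 (0.16 ± 0.05, adjusted p = 0.012, with overlap). GAGE4 was not called without the 3 RL95-2 arrays named above (0.12, adjusted p = 0.13) or without the second Hec-1A pair (0.14, adjusted p = 0.054). Neuronal genes had 5 higher and 2 lower of 16, a split of 2 and 2 without normalization between arrays, and SYT13 was the 1 higher past 2-fold. Of the 16, 6 passed the filter through Hec-1A alone and 1 through RL95-2 alone.

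The PDGF ligands, which bear on the treatment, differed between the lines. PDGFA (ILMN_2342695, chromosome 7), whose product forms PDGF-AA, lay at 6.64, 6.69 and 6.84 in Hec-1A, against 8.28, 8.44 and 8.52 in RL95-2 (-1.72 ± 0.05, limma adjusted p = 8.4e-13). A second PDGFA probe differed by -0.46 ± 0.05. PDGFC lay at 9.92, 10.08 and 10.29 in Hec-1A, against 9.14, 9.30 and 9.40 in RL95-2 (0.81 ± 0.07), and PDGFB at 7.27, 7.30 and 7.34 in Hec-1A, against 6.67, 6.78 and 6.92 in RL95-2 (0.51 ± 0.05). The receptor that PDGF-AA and 3G3 bind, PDGFRA, did not pass the filter: it lay at 6.50, 6.57 and 6.66 in Hec-1A, against 6.46, 6.53 and 6.65 in RL95-2, around the array median in both lines. PDGFRB lay at 6.39, 6.51 and 6.59 in Hec-1A, against 6.40, 6.51 and 6.64 in RL95-2 and was not tested either. The line difference of PDGFA was -1.63 with PDGF-AA + 3G3, against -1.81 with PDGF-AA, and the interaction was not called (adjusted p = 1).

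**Figure D5:**
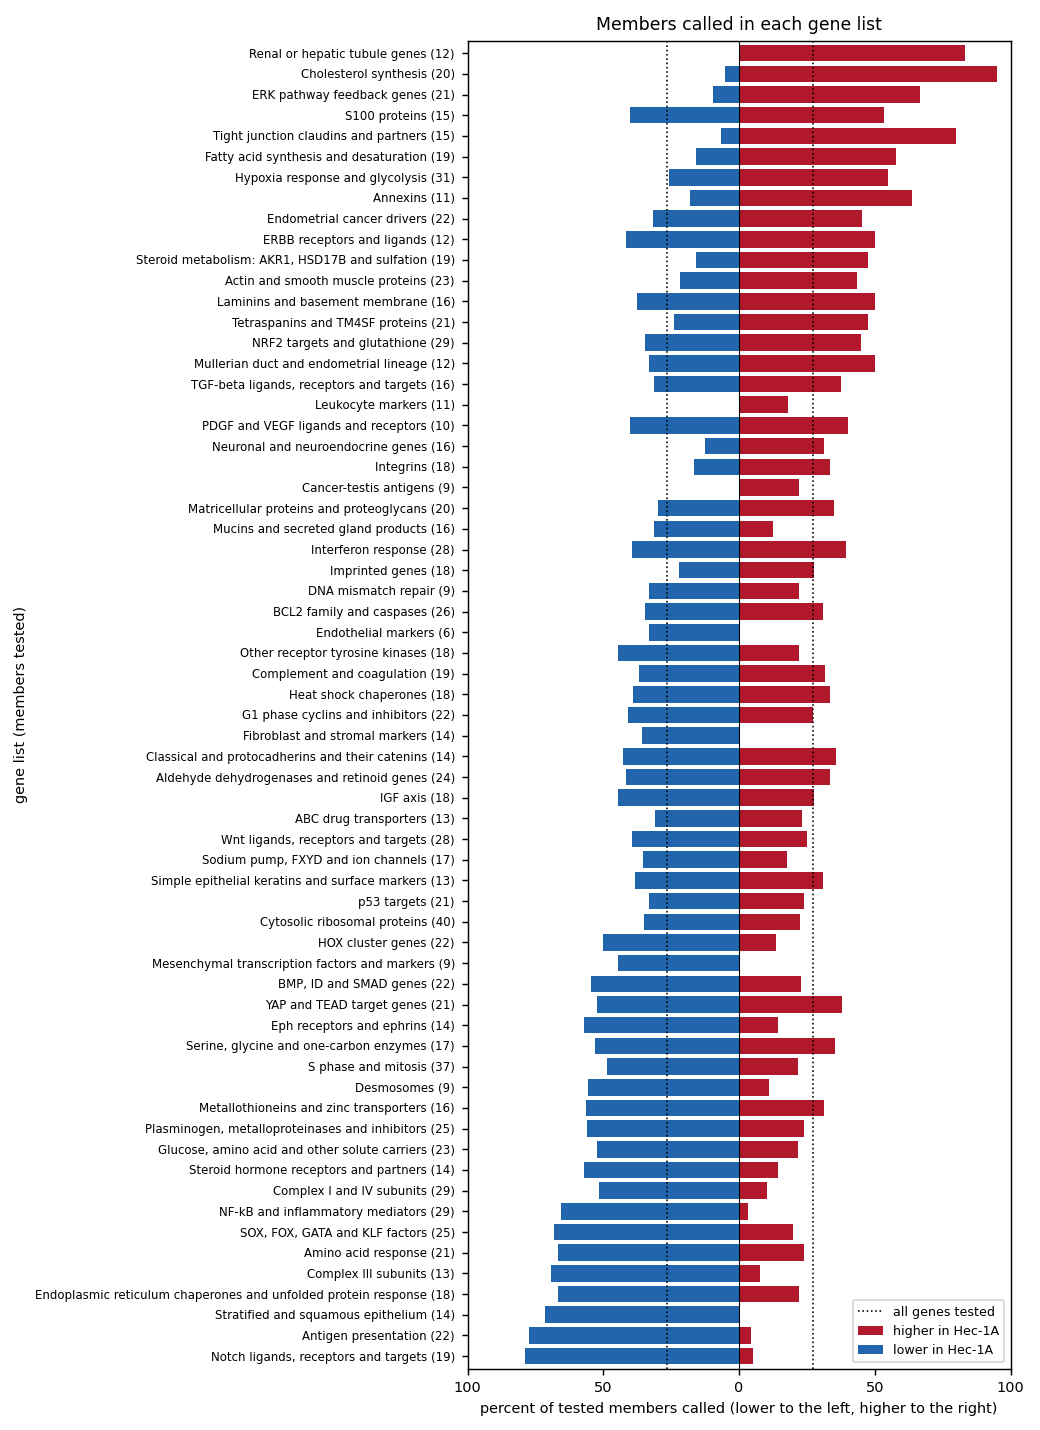
Bars give the percent of tested members called higher (red, to the right) or lower (blue, to the left) in Hec-1A for each of 64 gene lists, ordered by the median difference of the tested members, with the number tested in brackets and dotted lines at 27.1% and 26.4% for all genes. Renal or hepatic tubule genes and cholesterol synthesis stand at the top, and antigen presentation and Notch genes at the bottom.

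Probes of the same gene did not always agree. Of 4142 genes with several tested probes, 92 had probes called in opposite directions. The widest gaps included XRN2, an RNA exonuclease, with 1 probe at 0.16 ± 0.05 (0.17, adjusted p = 0.056, without the first Hec-1A pair) and the other at -1.63 ± 0.07. The first of these was no longer called after leaving out 1 array, either Hec-1A replicate 2 or 3 with PDGF-AA, Hec-1A replicate 1 with PDGF-AA + 3G3, RL95-2 replicate 2 or 3 with PDGF-AA, or RL95-2 replicate 1 with PDGF-AA + 3G3 (adjusted p from 0.051 to 0.067), or without normalization between arrays (0.07). SPTBN1, a spectrin, had probes at 0.77 ± 0.11 and -1.18 ± 0.06, and CSTF3, of RNA 3′ end cleavage, at 0.63 ± 0.10 and -1.03 ± 0.12. N4BP2L2 had 1.19 ± 0.04 on its brightest probe and -0.45 ± 0.07 on another, and MRPL43, of the mitochondrial ribosome, -1.08 ± 0.08 and 0.49 ± 0.05. For these genes no single direction holds, and which transcripts the probes read was not tested.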

How the data were processed

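RNA of the cells was hybridised to 1-colour Illumina bead arrays. The deposited intensity table holds signals that were extracted with BeadStudio, per the submitters' processing notes, with no background subtraction visible (lowest treated signal 66.7). The deposited log2 table holds the authors' normalized values of the same 18 arrays, and these differ by at most 0.0438 from a quantile normalization of the log2 intensities computed here. Its 47231 probes were named from the platform annotation, 30113 with 1 symbol, 8 with several and 17110 with none, and 30074 matched the RefSeq gene table by Entrez ID. limma 3.58.1 in R 4.3.3 was fitted to the 12 arrays with line and treatment as terms (9 residual and 5.1 prior degrees of freedom), with Benjamini-Hochberg adjustment over the 28916 probes above the array median on 3 or more arrays and a threshold of 0.05. The line difference was also fitted within each treatment, together with the interaction. Tables and plots were made with Python 3.11.15, pandas 2.3.3 and matplotlib 3.10.9. Named genes were the 15 largest differences each way without overlap, the 4 largest called members of each of 64 lists (some left out for length), cell type markers, PDGF genes, the 5 smallest interaction p-values and 5 genes with opposed probes. A gene was read on its brightest probe. The comparison, members and lists were chosen with earlier results of these data known. Tested on simulated data with 28916 probes for the line difference, the fit recovered 40 of 50 changes of 1.25-fold, 47 of 50 of 1.5-fold and 50 of 50 each of 2-fold and 4-fold, with 9 unchanged probes called. The simulated noise was independent for each probe and array, and no other probes differed. In the data, arrays shared components and 43.6% of probes were called, so these counts describe the simulated setting only. Replicate numbers were checked for pairing and did not pair the arrays. Alternatives varied the values, normalization, background, filter, moderation, weights, covariates, threshold and arrays. Arrays of cells under control IgG were not used, and some genes are not reported here.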

Additional observations from a re-analysis of the deposited data

Results flagged for a closer look

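In 24 of 546 groups of 6 arrays, each a named gene in 1 line, the highest or lowest array lay far from the other 5 by Dixon's test at its 95% critical value. Chance gives such a gap in about 1 of 20 groups, so 24 is near what chance gives. Values are normalized log2 signals.

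Among the genes with the largest line differences, FXYD2 in Hec-1A PDGF-AA replicate 2 was 11.88 against 12.33 to 12.59 on the other 5. FXYD2 in RL95-2 PDGF-AA + 3G3 replicate 1 was 6.72 against 6.39 to 6.49 on the other 5. AXL in RL95-2 PDGF-AA + 3G3 replicate 1 was 6.85 against 6.91 to 6.94 on the other 5, and OLR1 in Hec-1A PDGF-AA + 3G3 replicate 3 was 6.45 against 6.51 to 6.54 on the other 5. None of these gaps brought the lines near each other. Of the PDGF genes, PDGFA in Hec-1A PDGF-AA + 3G3 replicate 2 was 6.84 against 6.64 to 6.70 on the other 5.

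Lineage genes and cell type markers gave 7 such values. TWIST1 in Hec-1A PDGF-AA replicate 1 was 6.76 against 6.54 to 6.62 on the other 5. SOX17 in Hec-1A PDGF-AA replicate 2 was 7.60 against 7.79 to 7.86 on the other 5. KRT5 in Hec-1A PDGF-AA + 3G3 replicate 3 was 6.29 against 6.44 to 6.52 on the other 5. TRIM29 in Hec-1A PDGF-AA + 3G3 replicate 1 was 6.83 against 6.54 to 6.65 on the other 5. LAPTM5 in Hec-1A PDGF-AA replicate 1 was 6.91 against 6.59 to 6.68 on the other 5, and LAPTM5 in RL95-2 PDGF-AA + 3G3 replicate 2 was 6.66 against 6.49 to 6.53 on the other 5. MS4A1 in RL95-2 PDGF-AA + 3G3 replicate 1 was 6.43 against 6.59 to 6.64 on the other 5.

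Metabolic and transport genes followed. AKR1C4 in RL95-2 PDGF-AA + 3G3 replicate 3 was 7.83 against 8.08 to 8.17 on the other 5. RARRES2 in Hec-1A PDGF-AA replicate 2 was 7.77 against 8.06 to 8.12 on the other 5. SLC1A3 in Hec-1A PDGF-AA replicate 2 was 6.79 against 6.57 to 6.64 on the other 5. ABCB6 in RL95-2 PDGF-AA + 3G3 replicate 3 was 8.11 against 8.31 to 8.42 on the other 5. ABCC4 in RL95-2 PDGF-AA + 3G3 replicate 1 was 8.37 against 8.57 to 8.69 on the other 5.

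Immune and hormone response genes gave 4 values. IFIH1 in Hec-1A PDGF-AA + 3G3 replicate 1 was 8.15 against 8.36 to 8.45 on the other 5. CXCL1 in Hec-1A PDGF-AA + 3G3 replicate 1 was 7.55 against 6.95 to 7.14 on the other 5. TSC22D3 in Hec-1A PDGF-AA + 3G3 replicate 2 was 8.19 against 8.0 to 8.05 on the other 5. TSC22D3 in RL95-2 PDGF-AA + 3G3 replicate 1 was 7.38 against 7.14 to 7.22 on the other 5. For the remaining 3 genes, PRAME in RL95-2 PDGF-AA replicate 2 was 7.83 against 8.14 to 8.25 on the other 5, ARMC8 in Hec-1A PDGF-AA replicate 2 was 8.57 against 8.20 to 8.27 on the other 5, and SPTBN1 in Hec-1A PDGF-AA + 3G3 replicate 3 was 9.19 against 9.62 to 9.77 on the other 5. Hec-1A PDGF-AA replicate 2 and RL95-2 PDGF-AA + 3G3 replicate 1 held 5 of the 24 each.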

How the results depend on the processing

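Most results kept their direction and their side of the threshold. Over the 32 alternatives, values of the named genes stayed the same in direction and call 8572 times, lost the call 121 times, 56 of them under the 2-fold threshold, gained it 16 times and reversed once. The reversed one was GRXCR1, not called over all 12 arrays, at -0.21 on the PDGF-AA arrays only. With a threshold of at least 2-fold, 1728 probes were called in place of 12615, 822 higher and 906 lower. Without normalization between arrays 9010 were called, of which 3726 were higher (41.4% against 51.6%), and scaled to a common median 11634 (44% higher). Leaving out each array in turn gave 11968 to 12696 called probes over both treatments, 7770 to 9725 on the PDGF-AA + 3G3 arrays, 8175 to 9478 on the PDGF-AA arrays, and 0 for the interaction. Leaving out either of 2 pairs of Hec-1A arrays that lay on opposite sides of a component within that line, chosen after seeing the data, gave 11743 and 12267. With 2 arrays left in an arm, the fit pools the spread over groups. The calls lost most often were LAPTM5, XRN2, PKP2, GAGE4, CD8A and EGFL7, all dim or small differences. Replicate numbers did not pair the arrays: of 18 same-numbered pairs, 5 had deviations that correlated above 0.1 (range -0.705 to 0.539). With the replicate number as a block 12296 probes were called, 8392 on the PDGF-AA + 3G3 arrays, 8470 on the PDGF-AA arrays and 0 for the interaction, with 1 named gene losing and 1 gaining a call. A slide block was not run because the files name no slides. Signal over background limits dim probes: of the called probes, 625 lay at or below the array median on all Hec-1A arrays and 445 on all RL95-2 arrays, so that their folds are bounds.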
